A study of Homo sapiens with 42 samples.

Results

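Messenger RNA of 4 apolipoprotein genes, APOA1, APOB, APOC1 and APOE, was followed on arrays of Hep3B cells, an established human hepatoma line. The members were all probes that name only 1 of these genes in the array annotation, which gave 10 of the 13824 probes on each array. They represent 4 of the 5631 genes named by the 7336 probes with a single gene. APOA1 had 3 probes (1630, 80 and 7936), APOB 3 (418, 7796 and 6105), APOC1 2 (2920 and 7295) and APOE 2 (41 and 10662). Hep3B cultures were exposed to CM, a medium the labels call rich in pro-inflammatory cytokines, or to its control NCM, with sampling at T0, at 15 and 30 min, and at 1, 3, 6 and 16 h. The 14 groups of medium and time hold 3 arrays each, 42 in all, 1 from each of the experiments S1, S2 and S3. Within an experiment the CM and NCM cultures of a time came from 1 batch of trypsinized cells and form a pair, 21 pairs in all. The composition of CM and NCM is not given in the sources used here, and a single cell line is measured throughout.

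Apolipoproteins are the protein components of lipoprotein particles, and liver cells are a main source of them. APOA1 is the main protein of high-density lipoprotein and accepts cholesterol exported from cells. APOB is the structural protein of very-low-density and low-density lipoprotein. APOC1 is a small apolipoprotein that moves between particles and inhibits cholesteryl ester transfer protein, and APOE is a ligand of the low-density lipoprotein receptor family. Plasma APOA1 is known to decline during the acute phase response, the change in liver secretion that follows inflammatory cytokines.

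The genes lie on chromosome 11 (APOA1, 116835751 to 116837622), chromosome 2 (APOB, 21001429 to 21044073) and chromosome 19 (APOE, 44905796 to 44909393, and APOC1, 44914325 to 44919346) in GRCh38.p14. APOE and APOC1 are neighbours, with 4931 bases between them. Their promoters are shown because APOE and APOC1 were the members with a RefSeq promoter entry. The windows of 300 bases end shortly after the annotated start (for APOC1 a start inside the gene interval above). Between the brightest probes of APOE and APOC1 the Pearson correlation was 0.57 over the 42 arrays and 0.22 to 0.49 within experiments. Over the pair differences of CM minus NCM it was 0.28. It was 0.38 after neighbour centring, which subtracts the mean deviation of adjacent probe numbers on an assumed grid. Whether the promoters bear on these values was not tested. Sequences are from RefSeq, plus strand of chr19:44905546-44905845 and chr19:44914422-44914721, and 2 of the 4 members matched the promoter table. Capitals mark matches to the motifs searched on both strands: TATAA (a core promoter box), CCAAT (the core of NF-Y sites), GGGCGG (the core of Sp1 sites), AGGTCA (core of nuclear receptor sites), CAAAG (core of HNF4 sites) and GGGNNNTCC (a loose pattern that only resembles NF-kappaB sites):
APOE: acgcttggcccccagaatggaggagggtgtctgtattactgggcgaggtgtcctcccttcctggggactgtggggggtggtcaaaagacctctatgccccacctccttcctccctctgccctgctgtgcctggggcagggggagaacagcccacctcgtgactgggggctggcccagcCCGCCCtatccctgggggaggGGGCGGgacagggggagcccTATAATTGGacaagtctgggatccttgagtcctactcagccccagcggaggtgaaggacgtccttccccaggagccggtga
APOC1: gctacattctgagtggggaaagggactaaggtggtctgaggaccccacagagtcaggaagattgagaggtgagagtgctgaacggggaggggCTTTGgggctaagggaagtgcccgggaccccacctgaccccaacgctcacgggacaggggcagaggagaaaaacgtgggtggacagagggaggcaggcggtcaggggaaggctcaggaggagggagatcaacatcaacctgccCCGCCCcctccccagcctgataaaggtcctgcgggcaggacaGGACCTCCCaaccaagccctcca
The APOE promoter held TATAA at -31 to -27, overlapping CCAAT on the minus strand at -27 to -23. It also held GGGCGG at -51 to -46 and, on the minus strand, at -72 to -67. The APOC1 promoter held, all on the minus strand, CAAAG at -158 to -154, GGGCGG at -15 to -10 and GGGNNNTCC at 27 to 35. GGGCGG was thus in both, and AGGTCA was in neither of these windows. Of 35116 promoters of the same length, 20.4% held TATAA, 34.6% CCAAT, 45% GGGCGG, 13.8% AGGTCA, 47.5% CAAAG and 21% GGGNNNTCC. A match describes letters only. G and C made up 65% of the APOE window and 62.3% of that of APOC1.

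The deposited intensities had a mean of 0.999 to 1.00 and a median of 0.354 to 0.807 per array, and precision is limited by how many arrays there are. Levels below are log2 of quantile-normalized intensities, where 0 is close to the mean of an array. Differences are CM minus NCM within pairs, from limma over all 13824 probes, with Benjamini-Hochberg adjustment and a threshold of 0.05. Their SE and p come from the moderated spread of the pairs of all times at once, so the 3 pairs of a time do not set them alone. In bulk RNA, fewer cells expressing a gene and less RNA per cell cannot be told apart. Of 14 hepatocyte and hepatoma markers 13 were measured, with AFP at 1.78 to 2.89 and ALB at 1.01 to 2.14 on every array, while HNF4A was not among the measured genes. The summed intensity of these 13 lay between 20.7 and 35.0 on CM arrays and between 19.1 and 32.2 on NCM arrays. The sums of the 5 measured macrophage markers were 1.61 to 4.27 on CM arrays and 1.76 to 4.23 on NCM arrays, and the array values carry no detection call.

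Of the 10 apolipoprotein probes, 0 passed the threshold at any of the 7 times or in the mean over the 6 times after T0. In that mean, 7 of the 10 had lower values in CM, where 49.0% of all probes did, among them all 3 of APOA1, both of APOC1 and the brightest of APOE, and the median was -0.18 against 0.00 over all probes. limma called 0% of all probes in it, and 3 of the 10 had an unadjusted p under 0.05 with a lower value, where 2.67% of all probes did. These were APOA1 probes 1630 and 7936, which read the same gene, and APOC1 probe 2920. At single times the count with a lower value and an unadjusted p under 0.05 was 0 at T0 (2.94% of all probes), 1 at 15 min (1.53% of all probes), 3 at 30 min (1.66%), 1 at 1 h (2.08%), 1 at 3 h (1.4%), 1 at 6 h (1.56%) and 0 at 16 h (2.23%). By sign alone, 4 to 9 of the 10 were lower in CM at a time, with the largest count at 3 h and the smallest at 6 h, while 48.1% to 51.4% of all probes were lower at a time. At T0 it was 7 of the 10, against 48.1% of all probes, so the count in the mean was no larger than at the start. The medians over the 10 were -0.07 at T0, -0.23 at 15 min, -0.31 at 30 min, -0.13 at 1 h, -0.24 at 3 h, 0.04 at 6 h and -0.08 at 16 h. At 16 h 0.00723% of all probes were called, 1 probe of the complement gene CFB, and at every earlier time 0%.

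APOA1 probe 1630, the brightest of its gene, started at 0.70, 0.49 and 1.19 in CM and 0.74, 1.19 and 0.97 in NCM at T0, in the order S1, S2 and S3. At 15 min it had 0.29, -0.07 and 0.35 in CM, against 1.64, 0.16 and 0.59 in NCM. At 30 min it had 1.18, -1.05 and -0.05 in CM, against 1.11, -0.28 and 0.15 in NCM. The T0 arrays of the media overlap, and at 15 min each CM array was below its own pair mate although the media overlap. At 1 h it had 1.37, -0.01 and -0.15 in CM, against 1.76, -0.22 and 0.08 in NCM. At 3 h it had 1.26, -0.07 and -0.11 in CM, against 0.78, 0.23 and 0.16 in NCM. At both of these times S1 was high in both media and the S2 and S3 arrays were near 0. At 6 h it had 0.57, -1.28 and -0.05 in CM, against 0.86, -0.51 and 0.59 in NCM. At 16 h it had 0.91, -0.90 and -0.15 in CM, against 0.61, -0.20 and 0.51 in NCM. After T0 the lowest arrays were CM arrays of S2.

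**Figure D1:**
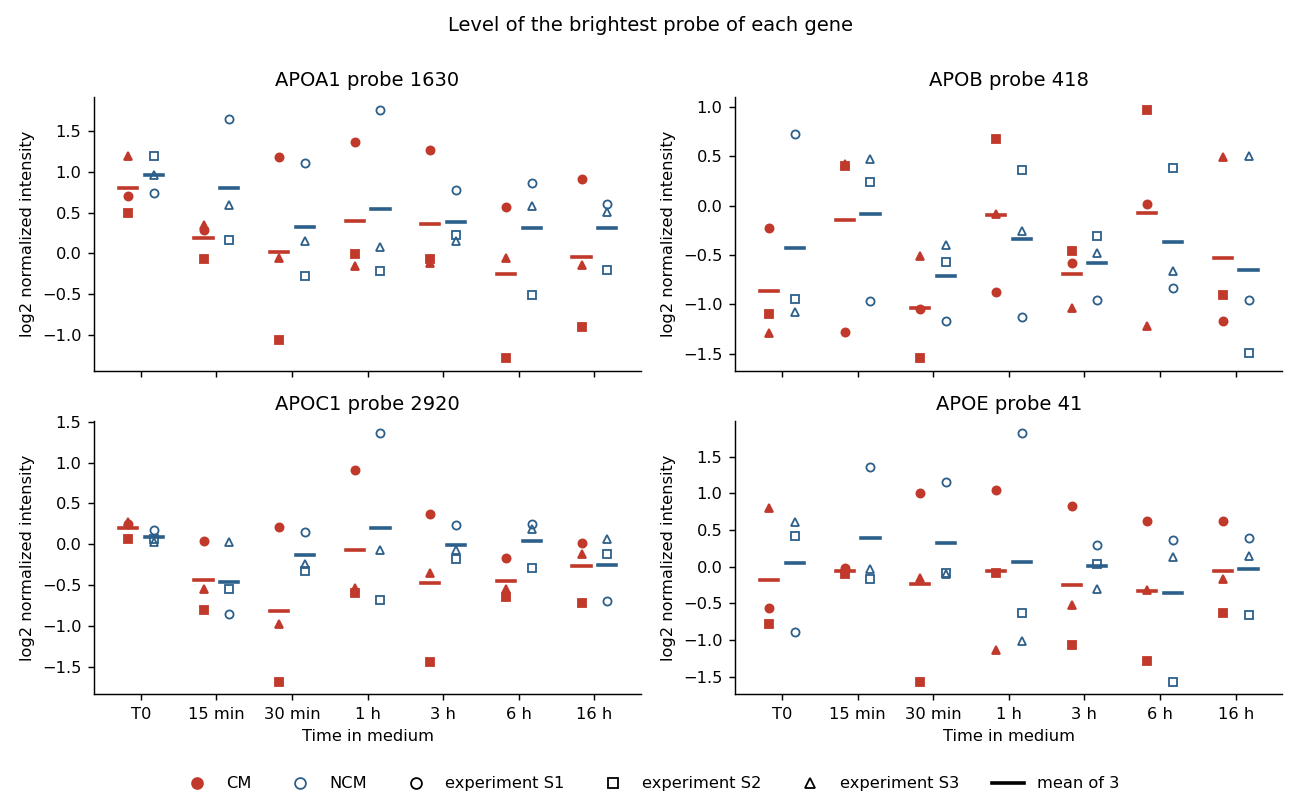
Level of the brightest probe of APOA1, APOB, APOC1 and APOE (log2 normalized intensity, vertical axis) against time in medium, with CM filled and left, NCM open and right, 1 symbol per experiment and a bar at the mean of 3 arrays. CM and NCM overlap at every time, and for APOA1 the S1 arrays after T0, 0.29 to 1.76, lie above those of S2, -1.28 to 0.23.

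Over the 6 times after T0, APOA1 probe 1630 averaged 0.11 ± 0.75 in CM and 0.45 ± 0.63 in NCM (SD, 18 arrays each). The difference was -0.33 (SE 0.11, 95% interval -0.56 to -0.11, unadjusted p = 0.00575, adjusted p = 0.696), with the CM array lower in 14 of 18 pairs. Probe 80 averaged -0.01 ± 0.77 in CM and 0.27 ± 0.82 in NCM, a difference of -0.27 (SE 0.13, 95% interval -0.55 to 0.00379, adjusted p = 0.873), lower in 13 of 18 pairs. Probe 7936 averaged -0.47 ± 0.60 in CM and -0.11 ± 0.61 in NCM, a difference of -0.37 (SE 0.091, 95% interval -0.56 to -0.18, unadjusted p = 0.000668, adjusted p = 0.385), lower in 15 of 18 pairs. All 3 probes of APOA1 had lower means in CM, and none passed the threshold. Of all probes, 5.99% were lower in CM in at least 13 of 18 pairs, 2.12% in at least 14 and 0.564% in at least 15. The p of probe 7936 ranked 24 among all probes. The mean of the 3 probes differed by -0.32 (SE 0.097, adjusted p = 0.645), lower in 15 of 18 pairs.

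APOA1 at T0 gave differences of -0.17, -0.04 and -0.04 on probes 1630, 80 and 7936, with SE of 0.26, 0.33 and 0.22. At 15 min probe 1630 had -0.61 (SE 0.26, unadjusted p = 0.0322, adjusted p = 1.00), lower in 3 of 3 pairs, as were 9.51% of all probes. At 30 min probe 80 had -0.74 (SE 0.33, unadjusted p = 0.0336) and probe 7936 -0.59 (SE 0.22, unadjusted p = 0.0156), both with an adjusted p of 0.997. Both were lower in 3 of 3 pairs at 30 min, against 11.7% of all probes, while probe 1630 had -0.30 there. In S1, S2 and S3 the 30 min pairs of probe 80 were -0.47, -1.58 and -0.19, so S2 gave most of its size. Those of probe 7936 were -0.70, -0.23 and -0.84, with S2 the smallest. The S2 CM array at 30 min had the highest median intensity of all arrays, 0.807, and its part in these values was not tested. At 15 min probe 80 had -0.62, with 2 of 3 pairs lower, and probe 7936 had -0.19, so the size differed between probes of the gene at both times. At 1 h probe 7936 had -0.51 (SE 0.22, unadjusted p = 0.0327, adjusted p = 0.977), lower in 3 of 3 pairs, against 12.8% of all probes, while probes 1630 and 80 had -0.14 and -0.12. At 3 h probes 1630, 80 and 7936 had -0.03, 0.07 and -0.32, each lower in 2 of 3 pairs, and probe 80 was the one member with a higher mean in CM at that time. At 6 h probe 1630 had -0.57 (SE 0.26, unadjusted p = 0.0432, adjusted p = 0.999) and probe 7936 -0.22, both lower in 3 of 3 pairs, against 11.3% of all probes, while probe 80 had -0.01. At 16 h the 3 probes had -0.35, -0.23 and -0.37. The F test over the 6 times gave an unadjusted p of 0.0253 for probe 7936 and an adjusted p of 1.00 for every member, with 0% of all probes called. At no time did the 3 CM arrays of any member lie apart from the 3 NCM arrays. Of all probes, 2.65% did at T0, 4.52% at 15 min, 2.76% at 30 min, 4.77% at 1 h, 4.82% at 3 h, 4.27% at 6 h and 5.24% at 16 h.

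**Figure D2:**
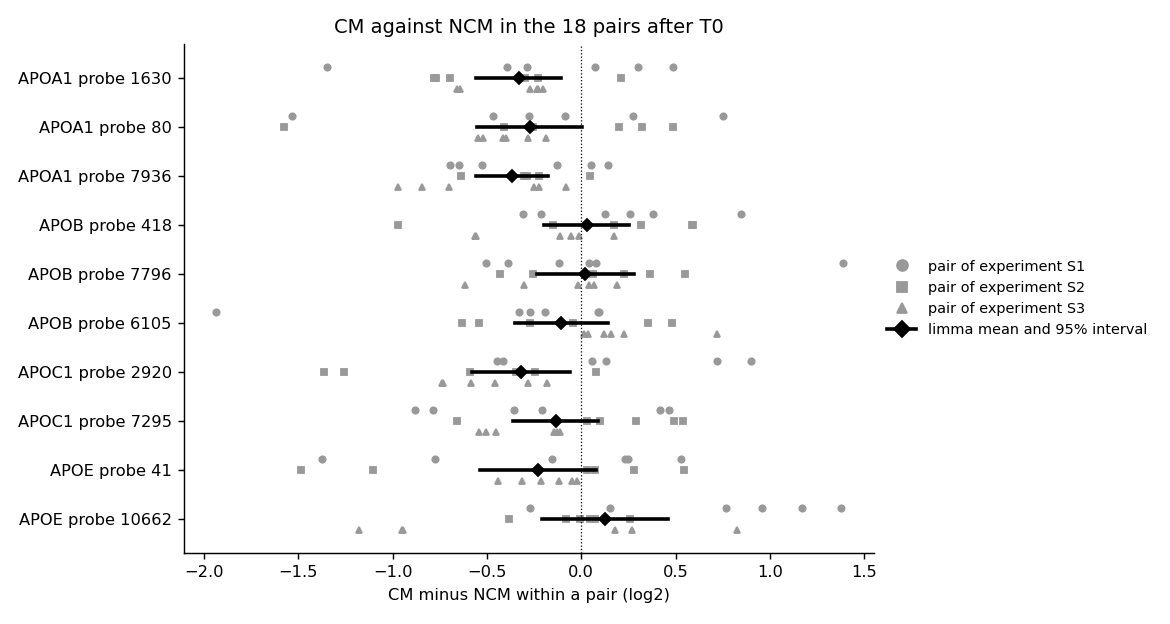
CM minus NCM (log2, horizontal axis) of the 10 probes in the 18 pairs after T0, with 1 grey symbol per pair by experiment and, in black, the limma mean with its 95% interval. The intervals of APOA1 probes 1630 and 7936 and of APOC1 probe 2920 lie below 0, and the S3 triangles of 6 probes lie below 0 in all 6 pairs.

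APOB probe 418, the brightest of its gene, had -0.23, -1.10 and -1.29 in CM and 0.73, -0.94 and -1.08 in NCM at T0. At 15 min it had -1.28, 0.41 and 0.42 in CM, against -0.97, 0.23 and 0.48 in NCM. At 30 min it had -1.05, -1.55 and -0.51 in CM, against -1.17, -0.57 and -0.40 in NCM. Its CM arrays were lower in 3 of 3 pairs at T0, as were 9.19% of all probes. At 1 h it had -0.87, 0.68 and -0.08 in CM, against -1.13, 0.36 and -0.25 in NCM. At 3 h it had -0.58, -0.46 and -1.04 in CM, against -0.96, -0.31 and -0.48 in NCM. The CM arrays were higher in 3 of 3 pairs at 1 h, as were 15.6% of all probes. At 6 h it had 0.01, 0.97 and -1.22 in CM, against -0.83, 0.38 and -0.66 in NCM. At 16 h it had -1.17, -0.90 and 0.49 in CM, against -0.96, -1.49 and 0.50 in NCM. At 15 min S2 and S3 were above 0 in both media and S1 was below 0 in both.

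APOB in the mean over the 6 times gave 0.03 on probe 418 (95% interval -0.20 to 0.25, adjusted p = 0.988), with the CM array lower in 9 of 18 pairs. Probe 7796 gave 0.02 (95% interval -0.24 to 0.28, adjusted p = 0.993), lower in 8 of 18 pairs. Probe 6105 gave -0.11 (95% interval -0.35 to 0.14, adjusted p = 0.939), also lower in 8 of 18 pairs. The intervals of all 3 APOB probes include 0 and reach no further than -0.35 and 0.28. Over the 18 later arrays of each medium, probe 7796 lay between -1.65 and -0.06 in CM and between -1.45 and -0.35 in NCM. Probe 6105 had -0.65 at 3 h (SE 0.29, unadjusted p = 0.0367, adjusted p = 1.00), where its S1 array had -2.24 in CM and -0.30 in NCM. At 16 h probes 7796 and 6105 had 0.10 and 0.20, higher in 3 of 3 pairs, as were 13.3% of all probes.

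APOC1 probe 2920 had 0.25, 0.07 and 0.27 in CM and 0.18, 0.06 and 0.02 in NCM at T0, higher in CM in 3 of 3 pairs, as were 9.47% of all probes. At 15 min it had 0.04, -0.80 and -0.55 in CM, against -0.85, -0.55 and 0.03 in NCM. At 30 min it had 0.21, -1.68 and -0.97 in CM, against 0.16, -0.32 and -0.23 in NCM. S2 and S3 were lower in CM at both times and S1 was not. At 1 h it had 0.91, -0.60 and -0.53 in CM, against 1.36, -0.68 and -0.07 in NCM. At 3 h it had 0.37, -1.43 and -0.35 in CM, against 0.23, -0.17 and -0.07 in NCM. The lowest APOC1 arrays at 30 min and 3 h were the CM arrays of S2. At 6 h it had -0.17, -0.64 and -0.55 in CM, against 0.25, -0.29 and 0.18 in NCM, lower in 3 of 3 pairs, as were 11.3% of all probes. At 16 h it had 0.02, -0.71 and -0.12 in CM, against -0.70, -0.12 and 0.06 in NCM.

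APOC1 probe 2920 averaged -0.42 ± 0.62 in CM and -0.10 ± 0.49 in NCM over the 6 later times (SD, 18 arrays each). The difference was -0.32 (SE 0.12, 95% interval -0.58 to -0.06, unadjusted p = 0.0178, adjusted p = 0.821), lower in 13 of 18 pairs. By experiment it was 0.16 in S1, -0.62 in S2 and -0.50 in S3, so that it was above 0 in 1 experiment. At 30 min it was -0.68 (SE 0.30, unadjusted p = 0.0366, adjusted p = 0.997). Probe 7295 gave -0.14 in the mean (95% interval -0.36 to 0.09, adjusted p = 0.917), lower in 11 of 18 pairs. At 15 min probe 7295 gave -0.47, lower in 3 of 3 pairs, as were 9.51% of all probes. APOC1 has a closely similar pseudogene, and whether a probe also reads it was not tested.

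APOE probe 41 had -0.57, -0.78 and 0.80 in CM and -0.89, 0.42 and 0.62 in NCM at T0. At 15 min it had -0.01, -0.09 and -0.05 in CM, against 1.36, -0.17 and -0.03 in NCM. At 30 min it had 1.00, -1.57 and -0.15 in CM, against 1.15, -0.08 and -0.10 in NCM, lower in 3 of 3 pairs, as were 11.7% of all probes. The size of the 30 min difference, -0.56, came mostly from S2, since the other pairs differed by little. At 1 h it had 1.04, -0.08 and -1.13 in CM, against 1.82, -0.62 and -1.02 in NCM. At 3 h it had 0.83, -1.06 and -0.52 in CM, against 0.30, 0.04 and -0.30 in NCM. From 30 min on, S1 was the highest experiment in both media. At 6 h it had 0.62, -1.28 and -0.31 in CM, against 0.37, -1.56 and 0.13 in NCM. At 16 h it had 0.63, -0.63 and -0.17 in CM, against 0.40, -0.65 and 0.15 in NCM. The media overlap at every time.

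APOE probe 41 gave -0.23 in the mean over the 6 times (95% interval -0.54 to 0.08, adjusted p = 0.899), lower in 11 of 18 pairs. Probe 10662 gave 0.13 (95% interval -0.21 to 0.46, adjusted p = 0.952), lower in 7 of 18 pairs. The signs of the 2 APOE probes differ and both intervals include 0. Probe 10662 lay between -3.62 and -1.61 on the arrays, with 1 array at the floor of the scale. It was higher in CM in 3 of 3 pairs at 1 h, as were 15.6% of all probes, with 0.49 (SE 0.39).

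Experiment S3 gave the most uniform differences, a pattern seen after the values were known. In its 6 pairs after T0, 6 of the 10 members were lower in CM every time, against 3.88% of all probes: the 3 APOA1 probes, both APOC1 probes and APOE probe 41. APOB probe 6105 was higher in all 6 pairs, against 3.31% of all probes. The members are not separate measurements, so these counts do not stand for as many genes. Over the 42 arrays the APOA1 probes had correlations of 0.83 to 0.94 with each other, and APOE probe 41 had 0.67 to 0.88 with them. In S1 and in S2, 0 of the 10 were lower or higher in all 6 pairs, against 1.77% of all probes lower and 2.29% higher in S1, and 1.92% and 2.58% in S2. The APOA1 means of S3 were -0.37, -0.39 and -0.51 on probes 1630, 80 and 7936, those of S1 were -0.20, -0.22 and -0.30, and those of S2 were -0.43, -0.21 and -0.28. Each APOA1 probe thus had a mean below 0 in all 3 experiments. APOE probe 41 did as well, with -0.21 in S1, -0.28 in S2 and -0.19 in S3. These were 4 of the 10 members, and the share of all probes is not given here. Pairs of 1 experiment may share cells across times, which the labels do not say. The SE, intervals and p of the mean over the 6 times take its 18 pairs as separate.

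Levels also differed between experiments, again a pattern seen after the values were known. After T0 each of the 3 APOA1 probes had all 12 S1 arrays above all 12 S2 arrays, as did 1.61% of all probes. Probe 1630 had 0.29, 1.01 and 1.76 in S1 as lowest, median and highest level, -1.28, -0.21 and 0.23 in S2, and -0.15, 0.11 and 0.59 in S3. At T0 these experiments were not in that order, since the S2 arrays of probe 1630 had 0.49 in CM and 1.19 in NCM. APOE probe 41 had 0.73 as its median in S1 and -0.63 in S2, with overlap, and APOB probe 418 ran the other way, with -0.96 in S1 and -0.04 in S2. The median intensity of an array was 0.425 to 0.731 in S1, 0.357 to 0.807 in S2 and 0.354 to 0.562 in S3, and its part in these levels was not tested.

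Over culture time, 8 of 10 members were lower at 16 h than at T0 in CM, with a median of -0.47, and 10 of 10 in NCM, with a median of -0.46. Over all probes 49.9% were lower in CM and 49% in NCM, and the medians were 0.00 and 0.01. APOA1 probes 1630, 80 and 7936 differed by -0.84, -0.66 and -1.08 in CM, with SE of 0.59, 0.62 and 0.48. In NCM they differed by -0.66, -0.47 and -0.75, with SE of 0.50, 0.64 and 0.49. Probe 7936 in CM had an unadjusted p of 0.0387 and an adjusted p of 1.00. None of the 10 was called in either medium, where 0% of all probes were called for 16 h against T0. The F test over the 7 times called 0 of the 10 as well, against 0.00723% of all probes in CM and 0.0145% in NCM. The CM effect at 16 h minus that at T0 also called 0 of the 10, and 0% of all probes.

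Probes of APOA1 had higher correlations with each other across arrays than probes of each other gene had among themselves. Over the 42 arrays the Pearson correlation was 0.94 between APOA1 probes 1630 and 80, 0.86 between 1630 and 7936, and 0.83 between 80 and 7936. Within single experiments these 3 correlations lay between 0.62 and 0.95, and with neighbour centring they were 0.74, 0.83 and 0.71. Over the 21 pair differences they were 0.74, 0.35 and 0.34. The 3 APOB correlations were -0.06, 0.28 and -0.03 over the arrays, and 0.36, 0.36 and 0.19 with neighbour centring. The APOC1 probes had 0.03 over all arrays, with -0.07 in S1, -0.15 in S2 and 0.78 in S3, and that value became 0.45 with neighbour centring and 0.38 on the values as deposited. The APOE probes had -0.48, which was -0.37 with neighbour centring, 0.03 as deposited and 0.01 over pair differences. The values of APOC1 and APOE thus differed between the normalized and the deposited intensities. Over 1119 genes with several probes, the 2 brightest had a median correlation of 0.04, with quartiles of -0.16 and 0.26 and a maximum of 0.94, which was that of APOA1.

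Between genes, APOE probe 41 had 0.85, 0.88 and 0.67 with APOA1 probes 1630, 80 and 7936. Within experiments S1, S2 and S3 it had 0.78, 0.71 and 0.83 with probe 1630, 0.83, 0.78 and 0.84 with probe 80, and 0.63, 0.32 and 0.55 with probe 7936. Over the 21 pair differences it had 0.69, 0.82 and 0.33 with these probes. APOE probe 41 and APOA1 probe 80 have probe numbers in the same run of 384, and with neighbour centring their 0.88 became 0.46, while the 0.85 with probe 1630 became 0.72 and the 0.67 with probe 7936 became 0.62. APOC1 probe 2920 had 0.68, 0.66 and 0.63 with the APOA1 probes, and 0.20, 0.23 and 0.11 over pair differences. The arrays come in pairs that share cells, so these correlations are descriptions.

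**Figure D3:**
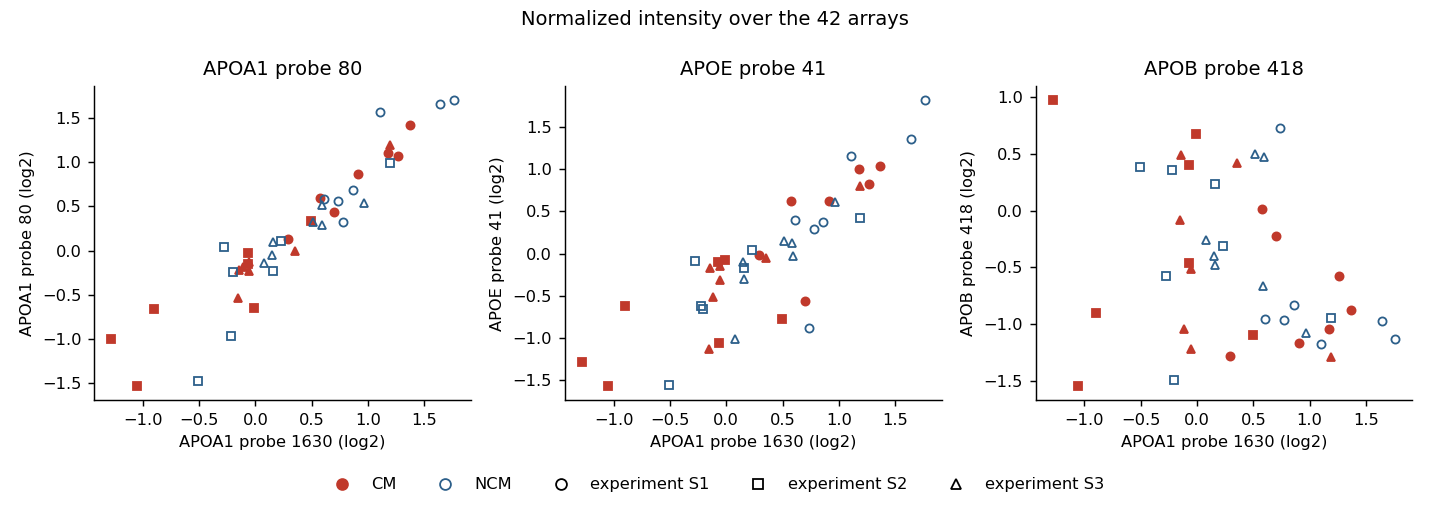
Level of APOA1 probe 80, APOE probe 41 and APOB probe 418 (vertical axes) against APOA1 probe 1630 (horizontal axis), log2 normalized intensity, 1 point per array, CM filled, NCM open, 1 symbol per experiment. The first 2 panels show rising clouds with correlations of 0.94 and 0.85, and the APOB panel has -0.33. In the first 2 panels the S1 circles after T0 lie mostly at the top and the S2 squares mostly at the bottom. The T0 arrays do not keep that order.

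**Figure D4:**
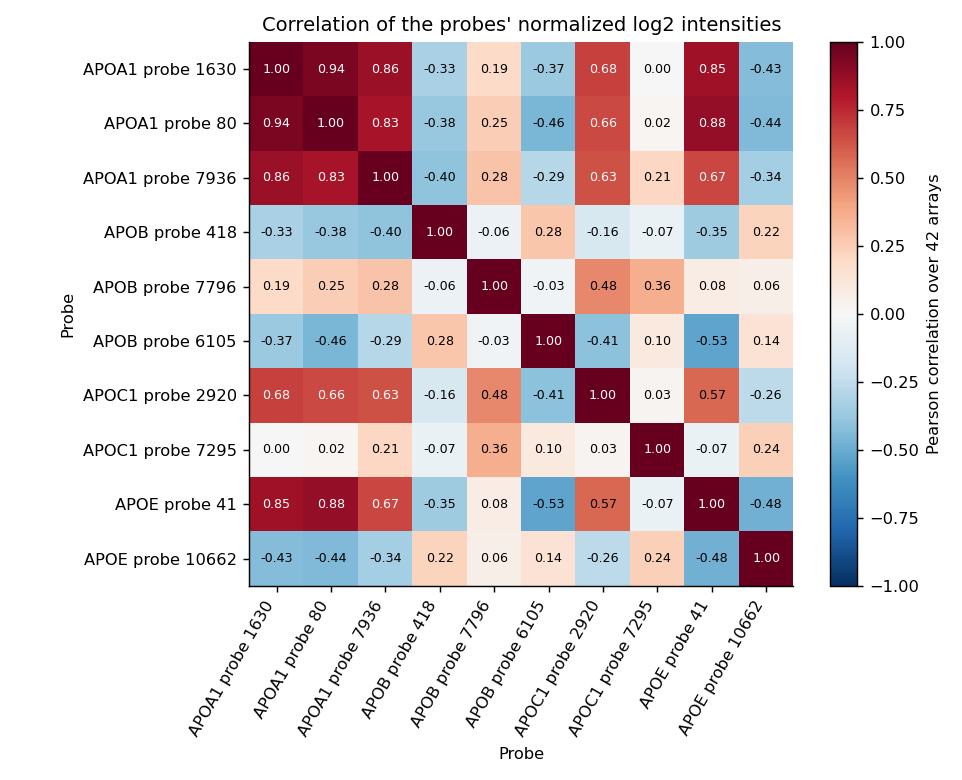
Pearson correlation of log2 normalized intensity over the 42 arrays for each pair of the 10 probes, from -1 in blue to 1 in red. The APOA1 probes and APOE probe 41 form a block of 0.67 to 0.94, while APOB probes have values from -0.06 to 0.28 with each other.

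Of 5617 other named genes, those most like APOA1 probe 1630 over the 42 arrays were RPL13 (0.90), FAU (0.89) and RPS3P3 (0.89). Their correlations over the 21 pair differences were 0.74, 0.67 and 0.48. For APOE probe 41 they were RPL13 (0.86), CD63 (0.86) and APOA1 (0.85), with 0.85, 0.51 and 0.69 over pair differences. For APOC1 probe 2920 they were FBL (0.84), MYL6 (0.83) and ACTB (0.78), with 0.74, 0.80 and 0.74. For APOB probe 418 they were MRPL21 (0.84), MAMDC2 (0.78) and MPRIP (0.77), but over pair differences only 0.19, 0.27 and 0.23. All 3 genes like APOB have probe numbers in the same run of 384 as probe 418, and MYL6 and ACTB in the same run as APOC1 probe 2920, while the genes like APOA1 probe 1630 and APOE probe 41 do not share their runs. The members had correlations of 0.02 to 0.66 with the median of the other 383 probes of their own run over the 42 arrays, and of -0.07 to 0.75 over pair differences, highest there for APOA1 probe 80.

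The other genes of lipoprotein and sterol metabolism were looked at as 5 lists of 106 genes, of which 48 were measured. None passed the threshold in any of the 9 contrasts, and in the mean over the 6 times 20 were lower and 28 higher in CM, with a median of 0.03. Of 20 other apolipoproteins 10 were measured, 4 lower and 6 higher with a median of 0.03, from CLU, a chaperone apolipoprotein (-0.21, SE 0.11), to APOL3 (0.30, SE 0.14). The 10 of 24 measured genes of lipoprotein assembly and remodelling had 4 lower, 6 higher and a median of 0.01, from ANGPTL4, an inhibitor of lipoprotein lipase (-0.11), to DGAT1, which makes triglyceride (0.20). MTTP, which loads lipid onto APOB, had 0.01 (SE 0.10) and is named here after its value was seen. The 7 of 16 measured receptors and sterol exporters had 4 lower, 3 higher and a median of -0.03, from the receptor VLDLR (-0.17) to ABCA1, which exports cholesterol to APOA1 (0.49, SE 0.12, adjusted p = 0.370). The 15 of 26 measured genes of cholesterol synthesis had 5 lower, 10 higher and a median of 0.05, from DHCR7 (-0.16) to INSIG1 (0.16). The 6 of 20 measured transcription factors had 3 lower, 3 higher and a median of -0.01, from FOXA1 (-0.31, adjusted p = 0.821) to NR1H3, the liver X receptor alpha gene (0.16). For comparison, the cytokine-related genes CFB, IL32 and ORM1, known from earlier results of these data, had 0.34, 0.46 and 0.21 in the same mean, and CFB at 16 h had an adjusted p of 0.0177.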

How the data were processed

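The deposited intensity values are linear, with 1 value per probe and array, a mean near 1 on every array and up to 2.12% of values below 0, as the deposited table shows. The sources used here do not give the array type, scanner, background or scaling steps. Arrays were quantile normalized, floored at the common 1st percentile (0.0812) and log2 transformed. R 4.3.3 with limma 3.58.1 fitted the 42 arrays with a term for each pair and a CM effect for each time (14 residual and 6.26 prior degrees of freedom, prior SD 0.31). Two-sided moderated tests were adjusted over 13824 probes (Benjamini-Hochberg). Levels over time were fitted per medium with no block. Plots used Python 3.11.15 with matplotlib 3.10.9.

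The pairs come from the labels: in 21 of 21 pairs the arrays deviated together from their groups (correlation 0.308 to 0.754, limit 0.1). The labels do not say whether an S number is a shared batch across times. Of 7336 probes with 1 gene, 7322 matched a GRCh38.p14 gene table by Entrez ID, and 0 symbols changed, giving 5631 genes. The rule for named genes took every probe of the 4 members, the 3 genes most correlated with each brightest probe, and per list the members past the threshold, the highest and the lowest (MTTP was added after its value was seen). A list gene was represented by its brightest probe. The members and lists were chosen with earlier results of these data known. Each of these was tried instead: median centring, no normalization, no pair block, the S number as a block over time, the dimmest 25% of probes left out, a floor at the 10th percentile, means of a gene's probes, each time alone, Spearman in place of Pearson correlation for the most similar genes, neighbour centring on assumed grids of 16 by 24 probes, and leaving out each replicate. The fit of CM against NCM was tested on simulated log2 values, and the other steps were not.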

Additional observations from a re-analysis of the deposited data

Results flagged for a closer look

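At 1 h every pair of APOB probe 418 was higher in CM and at T0 every pair was lower, and the CM effect at 1 h minus that at T0 was 0.69 (SE 0.38, unadjusted p = 0.0829, adjusted p = 1.00 by limma). At 6 h every pair of APOC1 probe 2920 was lower in CM and at T0 every pair was higher, and the CM effect at 6 h minus that at T0 was -0.61 (SE 0.43, unadjusted p = 0.171, adjusted p = 1.00 by limma). These were 2 of 210 such comparisons between times over the 10 probes, of which limma called 0, as it did over all probes. At T0 9.19% of all probes were lower and 9.47% higher in CM in 3 of 3 pairs. At 1 h 15.6% of all probes were higher in 3 of 3 pairs, and at 6 h 11.3% were lower. The share of all probes with opposite pairs between times is not given here, so an excess among the members cannot be read from this count.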

How the results depend on the processing

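Over 12 alternative settings and 1093 recomputed values of the 10 probes, 0 were called and the lowest adjusted p was 0.203 (APOA1 probe 7936 in the mean over the 6 times after T0, with neighbour centring), while 120 changed sign. The means of the 3 APOA1 probes over the 6 times stayed below 0 in the 10 settings run for probe 1630 and the 9 run for probes 80 and 7936, from -0.40 to -0.28 for probe 1630, -0.36 to -0.21 for probe 80 and -0.41 to -0.29 for probe 7936. APOC1 probe 2920 gave -0.56 without replicate 1 and -0.17 without replicate 2, and APOE probe 10662 -0.16 without replicate 1 and 0.34 without replicate 3. In the same mean APOB probe 6105, -0.11 with all, gave 0.05 without replicate 1 and -0.27 without replicate 3, and APOC1 probe 7295, -0.14 with all, gave -0.27 without replicate 2 and -0.05 without replicate 3. Probes 418 and 7796 of APOB, 0.03 and 0.02 with all, lay in ranges of -0.05 to 0.14 and -0.01 to 0.08, and APOE probe 41, -0.23 with all, gave -0.05 as the mean of its gene's probes. Leaving out a replicate turned APOB probe 418 at 30 min, -0.32 with all, in a range of -0.54 to 0.01 (0.00585 without replicate 2), and APOE probe 41 at 15 min, -0.44 with all, in a range of -0.70 to 0.03 (0.0266 without replicate 1). With no replicate block, so without the pairing, the lowest adjusted p of a member was 1.00, and no call of a member changed. The count over all probes at 16 h, 1 in the main fit, was then 0.

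Counts over all probes moved as follows, and the cause was not tested. At 16 h the 1 probe called became 0 with values as deposited, median centring and each time alone, 0 to 0 without a replicate, 2 with the dimmest 25% left out, 2 with the floor at the 10th percentile and 5 with neighbour centring. At 3 h the 0 probes became 1 with the dimmest 25% left out, with the higher floor and with the mean of a gene's probes, and at 1 h the range without a replicate was 0 to 1. The mean over the 6 times became 1 with the dimmest 25% left out and with the higher floor. CM over time, 1 probe, became 2 with median centring and with the dimmest 25% left out, 0 with means of probes, and 0 to 1 without a replicate. NCM over time, 2 probes, became 1 as deposited and with median centring, 0 with means of probes, and 0 to 0 without a replicate. The S number as a replicate block over time left both counts at 1 and 2. By Spearman correlation the 3 genes named for APOA1 and for APOB were again the first 3, ACTB ranked 16 for APOC1 and RPL13 ranked 5 for APOE. Values below the floor have no order, which limits APOE probe 10662.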
